A study of Mus musculus with 3 samples.

Results

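Cytochrome P450 enzymes are heme proteins that oxidize lipids, steroids and foreign compounds, and their genes were examined here for open chromatin in embryonic mouse liver. The members were the protein-coding genes of the GENCODE M21 annotation whose symbol is Cyp followed by a family number, a letter and a gene number. Cyp51, which has no letter, was included by name, Cyp2ab1 and genes with a trailing letter such as Cyp3a41a were kept, and pseudogenes and the unrelated Cypt genes were left out. This gave 100 genes of 21938 protein-coding genes. By family number they were divided into 15 sterol genes (families 7, 8, 11, 17, 19, 21, 24, 27, 39, 46 and 51), 61 drug genes (families 1, 2 and 3), 20 fatty acid genes (family 4) and 4 others (Cyp20a1, Cyp26a1, Cyp26b1 and Cyp26c1).

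The assay was DNase-seq, in which the enzyme DNase I cuts accessible DNA and the cut sites mark promoters, enhancers and other open elements. The 3 libraries are labelled as replicates of a single group, liver of mouse embryos aged 13.5 days, strain C57BL/6N,129. The embryos were homozygous for a globin mutation described as a deletion of HS2 and HS3. All 3 samples carry the mutation, and no unaltered liver is analysed here. The labels give 1 donor identifier and no sex, and do not settle whether the replicates come from different animals. The spread given below is therefore only that between these samples. HS2 and HS3 are names of elements in the control region of the β-globin genes.

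P450 enzymes fall into housekeeping and specialized branches. Cyp51 demethylates lanosterol on the way to cholesterol and is used by nearly all cells, whereas enzymes such as Cyp7a1 and Cyp8b1 make bile acids in hepatocytes and families 1 to 3 oxidize drugs and other foreign compounds, mostly in adult liver. At this fetal age the liver is above all a blood-forming organ, in which red cell precursors outnumber hepatoblasts. In such a bulk sample, fewer cells of a type and less open chromatin per cell cannot be told apart.

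The shorter of the authors' peak lists held 28209, 57314 and 41319 peaks in replicates 1, 2 and 3, and the longer held 43508, 84336 and 63109. Depth is not stated, and the smallest step between signal values, if it stands for 1 cut in a library scaled to M cuts, corresponds to 79.4, 119.5 and 132.7 M cuts. Red cell markers were open in all 3 replicates for 7 of 7 genes, with summed promoter signals of 35.6, 59.0 and 33.6. Hepatoblast markers were open in all 3 for 1 of 9, with summed signals of 1.89, 5.10 and 0.995 and a peak at 2, 5 and 1 of them, and Alb, Afp, Apoa2 and Foxa1 were without one. When weaker peaks of the longer list were counted, Afp, Alb and Apoa2 had a peak in 1 or 2 replicates and Foxa1 in none. Hepatoblast markers thus had peaks mainly in replicate 2, and the part of cell makeup in the P450 results was not tested. In the shorter list, of 5 endothelial and 4 macrophage markers none was open in all 3, of 4 mesenchymal markers 1 was (Col1a1), and 4 markers of steroid-making cells had no shorter-list peak in any replicate.

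Few P450 promoters were open. Peaks of the replicates were joined into regions, and a gene counts as open where a region with a peak from every replicate reaches within 500 bp of an annotated start. This held for 12 of the 100 P450 genes (12%), against 50.9% of all protein-coding genes. In single replicates 13, 19 and 17 P450 promoters held a peak, against 51.5%, 57.5% and 55.5% of all protein-coding genes in replicates 1, 2 and 3. In the longer list 14 were open, against 55.6%. The 12 were Cyp46a1, Cyp51, Cyp20a1, Cyp4f13, Cyp2u1, Cyp4f37, Cyp39a1, Cyp2r1, Cyp4f39, Cyp1a1, Cyp2d22 and Cyp4v3.

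At most of the others, not even a weak opening was listed. The deposited file of local cut density lists stretches with a false discovery rate (FDR) below 0.05. For 70 of the 100 genes no base in the promoter window was listed in any replicate, against 34% of all protein-coding genes. By group this was 8 of 15 sterol genes (53.3%), 47 of 61 drug genes (77%), 13 of 20 fatty acid genes (65%) and 2 of the 4 others. A base that is not listed did not pass the limit, which does not mean that it was never cut.

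The sterol families were compared with the drug families. Of the sterol genes 3 of 15 (20%) were open, of the drug genes 4 of 61 (6.56%), and of the fatty acid genes 4 of 20 (20%). The difference between the groups rests on 3 and 4 genes and was not tested. Without replicate 1, which has the fewest peaks, 5 sterol and 5 drug genes were open in both others, against 54.2% of all protein-coding genes. With the upper 50% of each list 2 and 1 were open, against 41.9%. Narrower family sets gave a wider gap, which was not tested either. Open were 3 of 7 genes of cholesterol and bile acid metabolism (42.9%) and 2 of 45 genes of families 1, 2a to 2e and 3 (4.44%). Over all protein-coding genes the share was 50.9%. The family number is also a loose guide to function, since 2 of the 4 open drug family genes, Cyp2r1 and Cyp2u1, act on vitamin D and on fatty acids.

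**Figure D1:**
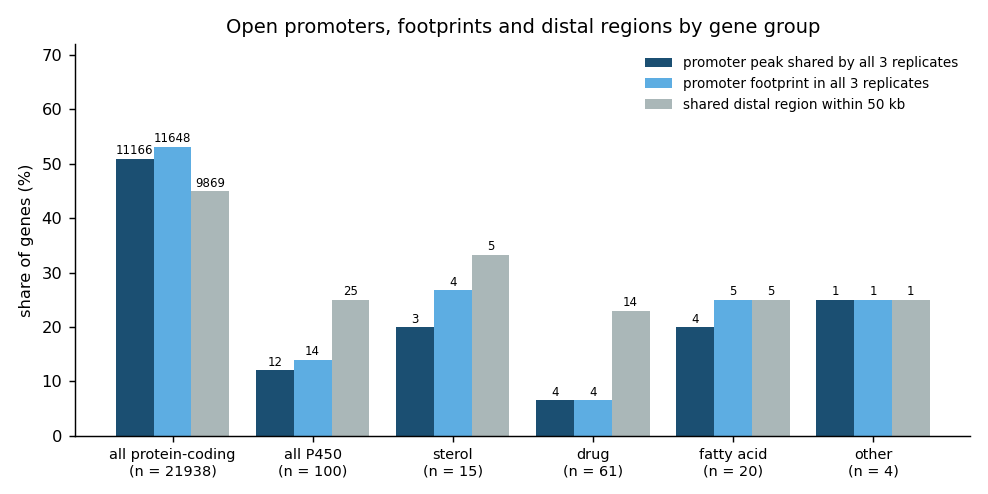
Share of genes, in percent, with a promoter peak region shared by all 3 replicates, with a promoter footprint in all 3 replicates, and with a shared distal region within 50 kb, for all protein-coding genes and for the P450 groups. The number over each bar is the count of genes. For each measure all P450 groups lie below all protein-coding genes, and the drug genes are lowest for promoter peaks, at 6.56%.

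The open P450 promoters were weak beside other open promoters. The signal of a peak is the authors' own value, a depth-normalized maximum of the cut density, and the strongest peak in the window stands for the promoter. Its mean over the replicates had a median of 2.13 over the 12 open P450 genes, with a range of 0.689 to 6.45, against a median of 5.58 over the 11166 open protein-coding genes. Only Cyp46a1 and Cyp51 lay above that median.

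Among the sterol genes, Cyp51, the lanosterol demethylase of cholesterol synthesis, had a promoter signal of 6.14, 7.004 and 5.50 in replicates 1, 2 and 3 (6.21 ± 0.755, SD, n = 3). Its region, chr5:4104381-4104880 (mm10), covers 2 of the annotated starts on the minus strand, among them the gene's 5′ end at 4104746, and held 6 footprints shared by all 3 replicates. Footprints are short stretches inside open chromatin that were cut less than their surroundings. All 19 genes listed for cholesterol synthesis were open in all 3 replicates, against 50.9% of all protein-coding genes, with signals from the isomerase gene Ebp (3.46 ± 0.899) to the late reductase gene Dhcr7 (11.99 ± 3.78). Cyp51 was the only P450 gene among them.

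Cyp46a1, which codes for the cholesterol 24-hydroxylase known from brain, had the highest mean signal of the P450 genes. It was 4.95, 8.93 and 5.46 in replicates 1, 2 and 3 (6.45 ± 2.16, SD, n = 3), so that replicate 2 stood well above the others and the order of Cyp46a1 and Cyp51 lies within the spread. Its region, chr12:108333981-108334360, is centred 210.5 bp upstream of the annotated start at 108334381 and does not reach it. The region held 6 shared footprints. The letters GGGCGG, known as the GC box and bound by Sp and KLF factors, were found on either strand at 4 of the shared stretches of at least 5 bases, and at 1 in Cyp51.

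The sequences of both promoters are shown because they are the strongest of the family. They cover up to 300 bases shared by the strongest peaks of the 3 replicates, read 5′ to 3′ on the gene's strand. Capitals mark bases that lie in a footprint in every replicate. Some of the shared footprints described above, with GC box letters of Cyp46a1 among them, lie wholly or partly outside the printed stretches.
Cyp51 (chr5:4104471-4104770, minus strand): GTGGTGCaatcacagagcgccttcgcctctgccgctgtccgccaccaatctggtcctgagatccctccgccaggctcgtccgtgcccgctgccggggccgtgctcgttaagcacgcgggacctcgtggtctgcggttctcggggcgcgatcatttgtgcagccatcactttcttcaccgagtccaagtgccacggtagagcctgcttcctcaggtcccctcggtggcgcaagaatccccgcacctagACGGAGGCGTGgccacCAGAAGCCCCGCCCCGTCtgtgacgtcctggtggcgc
Cyp46a1 (chr12:108334001-108334200, plus strand): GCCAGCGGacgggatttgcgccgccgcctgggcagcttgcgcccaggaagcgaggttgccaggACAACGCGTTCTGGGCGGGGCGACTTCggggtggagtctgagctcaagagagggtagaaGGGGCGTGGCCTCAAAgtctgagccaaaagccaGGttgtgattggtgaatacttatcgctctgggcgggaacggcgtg

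Cyp39a1, an oxysterol hydroxylase that acts on the product of Cyp46a1, was the weakest of the open sterol genes. Its signals were 1.86, 2.47 and 1.88 (2.07 ± 0.343, SD, n = 3), close to each other and far below those of Cyp51. The region, chr17:43666981-43667320, also reaches the start of the neighbouring gene Slc25a27, so the peak cannot be assigned to Cyp39a1 alone.

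Cyp27a1, the sterol 27-hydroxylase of the acidic bile acid pathway, had a weak peak in each replicate, of 0.769, 0.602 and 0.693. The peaks did not form 1 region: that of replicate 1 spans chr1:74713501-74713589 over the start at 74713574, that of replicate 2 lies upstream at 74713153-74713380, and replicate 3 had peaks at both. It was therefore not counted as open, although in the longer list it was. Cyp17a1, a steroid 17-hydroxylase of gonads and adrenal glands, had a peak in replicates 2 (0.946) and 3 (0.851) and none in replicate 1. That peak lies 410.5 bp into the gene from an alternative start at 46671291, not at the 5′ end at 46673172.

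Of the bile acid enzymes, Cyp7a1, Cyp8b1 and Cyp7b1 had no open promoter. Cyp7a1, the rate-limiting enzyme of bile acid synthesis, and Cyp8b1, the sterol 12-hydroxylase, had no peak in either list, no footprint and no base below the FDR limit in any replicate. Cyp7b1, the oxysterol 7-hydroxylase, had no peak in the shorter list and weak ones in the longer list, of 0.184 in replicate 2 and 0.249 in replicate 3. The steroid hormone genes Cyp11a1, Cyp11b1, Cyp19a1 and Cyp21a1 and the vitamin D activator Cyp27b1 had no promoter peak in either list. Cyp24a1, which breaks down active vitamin D, had only a longer-list peak of 0.512 in replicate 3.

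**Figure D2:**
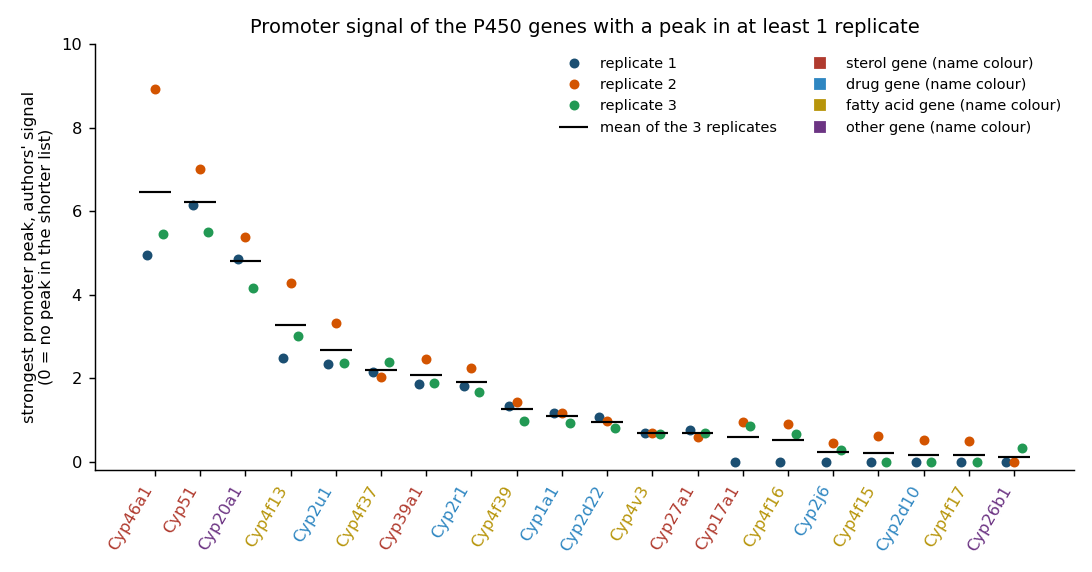
Signal of the strongest promoter peak in the shorter list (authors' depth-normalized cut density) for the 20 P450 genes with a peak in at least 1 replicate. Points are the replicates, lines their mean, and 0 means no peak. Cyp46a1, Cyp51 and Cyp20a1 are highest in every replicate, and the last 7 genes lack a peak in at least 1 replicate.

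Among the drug families, the highest signals belonged to genes that are not drug enzymes. Cyp2u1, a fatty acid hydroxylase, had 2.34, 3.32 and 2.37 (2.68 ± 0.556, SD, n = 3). Its region, chr3:131303121-131303360, covers the start at 131303227 and also reaches the start of 4930534D22Rik. Cyp2r1, the vitamin D 25-hydroxylase, had 1.83, 2.25 and 1.67 (1.92 ± 0.299, SD, n = 3) in a region of 680 bp at chr7:114562481-114563160.

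The other 2 open drug family genes had weak regions beside the start. Cyp1a1, which the aryl hydrocarbon receptor induces in response to dioxin-like compounds, had 1.17, 1.18 and 0.934 (1.095 ± 0.140, SD, n = 3). Its region, chr9:57688194-57688380, is centred 359 bp inside the gene and does not cover the start at 57687928. Cyp2d22, the mouse gene often compared with human CYP2D6, had 1.07, 0.979 and 0.821 (0.957 ± 0.126, SD, n = 3) in a region centred 409.5 bp inside the gene from an alternative start. The peaks of replicates 1 and 2 do not overlap and are joined only through replicate 3, with 0 shared footprints, and with a required overlap of 50% Cyp2d22 was not open. Beyond these, Cyp2j6 had a peak in replicates 2 (0.460) and 3 (0.279), and in the longer list also in replicate 1 (0.340), and Cyp2d10 in replicate 2 alone (0.519).

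Several genes of well-known drug enzymes had no peak. Cyp1a2, Cyp2e1, Cyp2b10, Cyp2c29, Cyp3a11, Cyp3a13 and Cyp3a16, a fetal form of the Cyp3a group, had no peak in either list and no base below the FDR limit in any replicate. At Cyp2c29 and Cyp3a16 this is uncertain, since only 5.99% and 43.5% of the words in their windows occur once in the genome. Cyp1b1 and Cyp2s1 had only a longer-list peak in replicate 2, of 0.226 and 0.402. In all, 9 P450 genes (9%) had a promoter peak in the longer list only, against 5.74% of all protein-coding genes.

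In the fatty acid family, 3 of the 4 open genes were Cyp4f genes, whose enzymes act on leukotrienes and long fatty acids. Cyp4f13 had 2.49, 4.29 and 3.02 (3.27 ± 0.924, SD, n = 3) at its 5′ end. A further region of Cyp4f13, with 1.63 ± 0.167, is centred 580 bp beyond an alternative start and does not cover it. Cyp4f37 had 2.14, 2.04 and 2.39 (2.19 ± 0.178, SD, n = 3), but its region is centred 538.5 bp beyond an alternative start and none lies at the 5′ end of the gene. Cyp4f39, involved in skin lipids, had 1.35, 1.43 and 0.987 (1.26 ± 0.236, SD, n = 3). Cyp4v3, a broadly used fatty acid hydroxylase, was the weakest open gene, with 0.693, 0.703 and 0.671.

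Other Cyp4f genes were open in part of the replicates. Cyp4f16 had peaks of 0.904 and 0.663 in replicates 2 and 3, and in the longer list also 0.970 in replicate 1. Cyp4f15 (0.628) and Cyp4f17 (0.502) had a peak in replicate 2 alone. No gene of the Cyp4a group, known as targets of the receptor PPARα, had a promoter peak, Cyp4a14 included.

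Outside these families, Cyp20a1, an enzyme without a well-known substrate, ranked behind only Cyp46a1 and Cyp51 in mean signal. It had 4.86, 5.37 and 4.16 (4.80 ± 0.609, SD, n = 3), a region at chr1:60343161-60343620 that covers the start at 60343323, and 6 shared footprints. The retinoic acid hydroxylase Cyp26a1 had no promoter peak in either list. Cyp26b1, of the same function, had only replicate 3 peaks, the strongest of 0.324, and 2034 bases below the FDR limit in that replicate against 0 in the others.

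Footprints followed the peaks. A promoter footprint was present in all 3 replicates at 14 P450 genes, against 53.1% of all protein-coding genes. They were the 12 open genes, Cyp27a1 and Cyp4f16. The footprints need not be the same in each replicate. The open regions of Cyp2d22, Cyp4f39 and Cyp4v3 held 0 footprints shared by all 3. Counting only footprints inside a shorter-list peak gave 11 genes, and the share over all protein-coding genes was not computed for this. The next 3 sequences show contrasting cases: a promoter with footprints around its start, and regions of Cyp1a1 and Cyp4f37 inside the gene with a single shared footprint of at least 5 bases. Capitals again mark bases in footprints of every replicate.
Cyp20a1 (chr1:60343221-60343520, plus strand): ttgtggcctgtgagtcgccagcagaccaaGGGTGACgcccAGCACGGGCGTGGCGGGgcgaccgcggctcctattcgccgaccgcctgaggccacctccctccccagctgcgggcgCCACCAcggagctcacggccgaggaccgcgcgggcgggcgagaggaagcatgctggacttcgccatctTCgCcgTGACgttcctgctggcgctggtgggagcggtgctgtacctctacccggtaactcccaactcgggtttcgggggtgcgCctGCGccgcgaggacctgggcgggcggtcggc
Cyp1a1 (chr9:57688204-57688321, plus strand): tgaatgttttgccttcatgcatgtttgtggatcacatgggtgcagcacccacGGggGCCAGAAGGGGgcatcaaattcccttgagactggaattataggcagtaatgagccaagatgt
Cyp4f37 (chr17:32635161-32635340, plus strand): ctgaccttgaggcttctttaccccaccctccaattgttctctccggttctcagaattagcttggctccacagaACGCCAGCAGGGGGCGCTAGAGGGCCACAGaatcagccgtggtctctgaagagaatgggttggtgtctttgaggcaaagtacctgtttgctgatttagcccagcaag

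The footprint of 30 bases in Cyp4f37 and that of 11 bases in Cyp1a1 both lie on letters of the core motif of CTCF, a factor that organizes chromosome loops. The core was searched on both strands as CANNAGNNGGC, a choice made after these footprints were seen. It was found in the central 200 bases of 4 of the 13 shared promoter regions of P450 genes (30.8%), against 8.98% of the 15386 shared regions that are not distal. The 4 include the 2 whose footprints prompted the search. At these 2, Cyp1a1 and Cyp4f37, at least 5 bases of the core lay in a footprint of every replicate. A match is a description of the letters and does not show that the factor was bound.

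The CpG dinucleotide content of the promoters was examined next. Promoters rich in CpG are known to be open in most tissues. The observed over expected CpG ratio within 500 bp of the gene start had a median of 0.151 over the P450 genes, against 0.552 over all protein-coding genes. Of the 9 P450 genes with a ratio of at least 0.6, 7 were open, against 83.5% of all protein-coding genes above that limit. Of the 91 below it, 5 were open (5.49%), against 23.2% of all genes below the limit. CpG-rich promoters thus made up 58.3% of the open P450 promoters, against 75.4% of all open promoters.

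The sterol and drug genes were also set side by side within each CpG class. At or above the limit 3 of 4 sterol genes and 2 of 2 drug genes were open, and the closed one was Cyp24a1. Below it 0 of 11 sterol genes and 2 of 59 drug genes were open. All 3 open sterol genes thus belong to the CpG-rich promoters, which make up 26.7% of the sterol genes and 3.28% of the drug genes. The other closed CpG-rich gene was Cyp26a1. In the narrower family sets 3 of 7 sterol genes (42.9%) and 0 of 45 drug genes were at or above the limit.

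**Figure D3:**
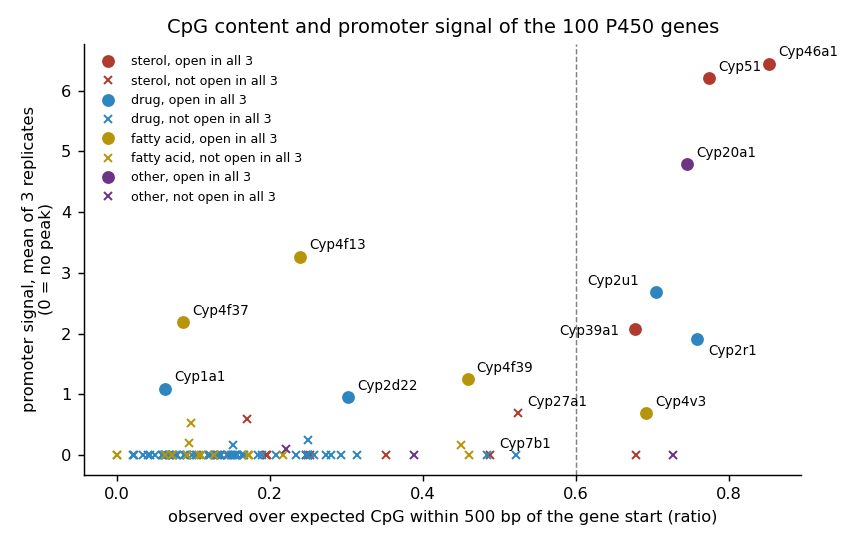
Observed over expected CpG ratio within 500 bp of the gene start (x axis) and mean promoter signal over the 3 replicates (y axis, 0 means no peak) for the 100 P450 genes. Filled circles are open in all 3 replicates, crosses are not, and the dashed line is the ratio of 0.6. Right of the line 7 of 9 genes are open, left of it 5 of 91.

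The letters of the promoters differed as well. They were searched on both strands in the 250 bases before and 50 after the gene start. TATAAA, the letters of the TATA box, occurred anywhere in this window in 33 P450 genes (33%) against 12.6% of all protein-coding genes. Among drug genes the share was 44.3% and among sterol genes 13.3%. Of the 33 P450 genes 0 were open, against 27.4% of all 2775 genes with a match. Several of the 33 are near-copies of each other, so the matches are not independent. At Cyp2a4, Cyp2a5, Cyp2c40, Cyp2c69, Cyp2d11, Cyp3a16, Cyp3a41a and Cyp3a41b less than 50% of the words in the promoter window occur once in the genome. Reads may be missing there, so the lack of a shared peak at these genes is uncertain. A match on either strand that begins 20 to 40 bp upstream of the start, the usual place of a TATA box, was in 10 P450 genes (10%) against 2.8% of all. At Cyp2d10, Cyp2d34 and Cyp2d40 this match lies on the strand opposite to the gene, where a TATA box would not be read. The GC box letters GGGCGG occurred in 19% of P450 genes against 43% of all, and in 40% of sterol and 8.2% of drug genes. TGTTTAC, a site of FOXA factors, occurred in 10% against 3.05%.

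The letters CAAAGTCCA, a site of the hepatocyte factor HNF4A, were in 11 P450 promoters (11%) against 0.419% of all protein-coding promoters. They were in Cyp8b1 and in 10 drug genes of the Cyp2c and Cyp3a groups, and 0 of the 11 were open, against 27 of all 92 promoters with a match (29.3%). Several of these genes are near-copies of each other, so the matches are not independent, and at 5 of the 11 less than 50% of the 32-base words around the start occur once in the genome, so that reads may be missing there. HNF4A itself is coded by Hnf4a, whose promoter held a peak in replicate 2 alone, of 0.870. The matches of 5 genes are shown with 10 bases on each side, on the gene's strand and with the matched letters in capitals, to show how far copies share them.
Cyp8b1, first base of the match 67 bp upstream of the start: agcctctgagCAAAGTCCAagggcaggaa
Cyp3a16, 99 bp upstream: aagagacgacCAAAGTCCAggtgatgcag
Cyp3a11, 1 bp downstream: aagagagtacCAAAGTCCAgtgatgcaaa
Cyp2c67, 116 bp upstream: atcattgagaCAAAGTCCAtttggaagca
Cyp2c70, 17 bp upstream: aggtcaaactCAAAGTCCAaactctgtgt

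The whole windows of a bile acid gene and a drug gene without a peak, the latter with repeated sequence, are printed as the counterpart of Cyp51 and Cyp46a1. They run from 250 bases before to 50 after the annotated start. Capitals mark the HNF4A site and the TATA box in Cyp8b1. In Cyp3a16 they mark the FOXA site, the letters of the TATA box and the HNF4A site, in this order. There the letters of the TATA box begin 126 bp upstream of the start, outside the usual place of a TATA box.
Cyp8b1 (chr9:121916256-121916555, minus strand): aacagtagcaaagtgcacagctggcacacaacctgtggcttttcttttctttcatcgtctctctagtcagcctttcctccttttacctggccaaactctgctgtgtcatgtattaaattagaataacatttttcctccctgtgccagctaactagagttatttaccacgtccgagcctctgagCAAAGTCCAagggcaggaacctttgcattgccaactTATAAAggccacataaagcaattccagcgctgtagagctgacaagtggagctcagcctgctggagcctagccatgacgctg
Cyp3a16 (chr5:145469674-145469973, minus strand): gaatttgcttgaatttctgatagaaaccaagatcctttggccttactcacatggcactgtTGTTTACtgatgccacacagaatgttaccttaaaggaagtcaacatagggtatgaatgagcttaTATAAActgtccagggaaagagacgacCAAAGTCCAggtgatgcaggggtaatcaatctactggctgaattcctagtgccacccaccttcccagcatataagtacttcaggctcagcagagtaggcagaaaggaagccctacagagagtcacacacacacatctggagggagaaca

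Most P450 genes lie in tandem clusters of related copies, and these were sparse in open sites. A cluster was defined as at least 4 genes of a family whose neighbouring starts were at most 500 kb apart, which gave 7 clusters with 69 genes over 5401 kb. They held 15, 38 and 24 shorter-list peaks in replicates 1, 2 and 3, or 2.78, 7.04 and 4.44 per Mb, against 10.3, 21.03 and 15.2 per Mb of the genome. Of the clustered genes 4 (5.8%) were open, and of the 31 others 8 (25.8%), against 50.9% of all protein-coding genes. A CpG ratio of at least 0.6 was found at 0 of the 69 clustered genes and at 9 of the 31 others (29%). The part of CpG content in this difference was not tested.

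The Cyp3a cluster, with 8 genes over 768 kb of chromosome 5, held 0, 1 and 0 peaks, and the Cyp2c cluster, with 14 genes over 1180 kb of chromosome 19, held 1, 1 and 0. Part of this sequence occurs in several copies, where reads may not be placed. Of the 32-base words, 51.3% in the Cyp3a cluster and 55.3% in the Cyp2c cluster occur once in the genome. Over the promoter windows the median share was 95.15%. It was under 50% at 13 genes, and 0 of those 13 were open, so their lack of a shared peak is uncertain. Among them are Cyp2c29 (5.99%) and Cyp3a16 (43.5%), whereas Cyp3a11 (99.5%), Cyp2e1 (100%) and Cyp7a1 (99.5%) have nearly unique windows.

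**Figure D4:**
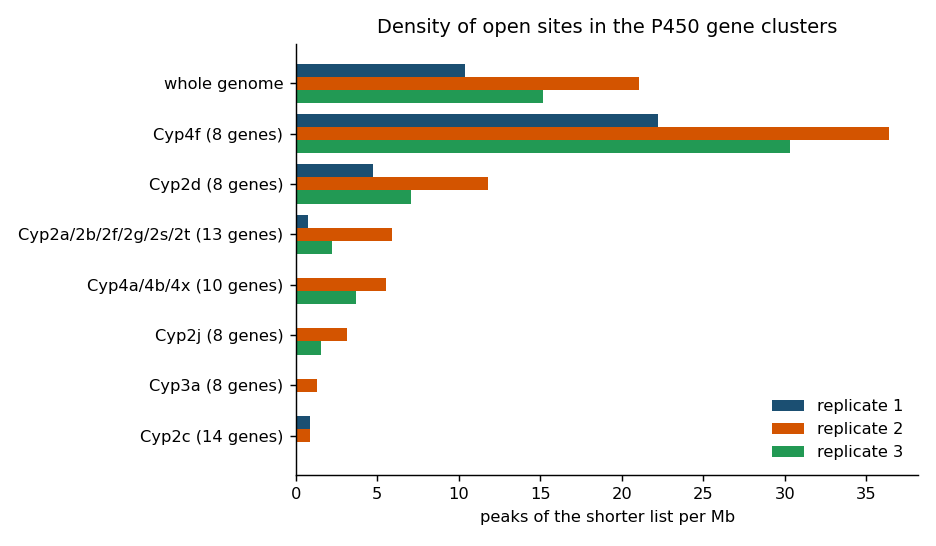
Peaks of the shorter list per Mb in the 7 P450 gene clusters and in the whole genome, by replicate. The Cyp4f cluster, with 22.2, 36.4 and 30.3 peaks per Mb, lies above the genome in every replicate, and the other 6 lie below it in every replicate.

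The Cyp4f cluster on chromosome 17 was the exception. It held 11, 18 and 15 peaks over 495 kb, or 22.2, 36.4 and 30.3 per Mb, and 10 of the 13 regions that all 3 replicates shared within the clusters. Of these 10 regions 4 lay at promoters of Cyp4f13, Cyp4f37 and Cyp4f39, 3 at promoters of the zinc finger genes Zfp799, Zfp870 and Zfp871 that lie between the P450 genes, and 3 at neither. In this cluster 83.9% of the words occur once.

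**Figure D5:**
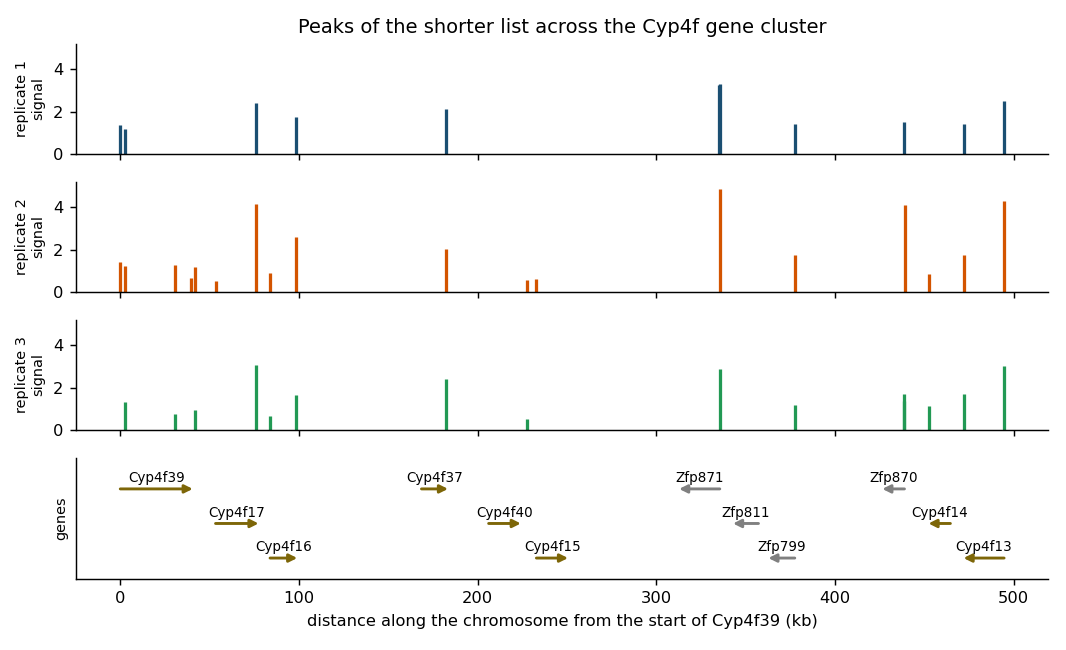
Shorter-list peaks across the Cyp4f cluster in replicates 1, 2 and 3, with the authors' signal (y axis) against the distance in kb from the start of Cyp4f39. Arrows give the P450 genes (brown) and other coding genes (grey) in their direction of transcription; the replicate 3 peak at the Cyp4f39 start ends just before 0 kb and is not drawn. Replicate 2 has the most peaks, 18, and the strongest lies at the start of Zfp871.

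Distal open regions were also less common near P450 genes. A distal region was over 1 kb from any annotated start and shared by all 3 replicates. At least 1 lay within 50 kb of 25 P450 genes (25%), against 45% of all protein-coding genes, and by group of 5 of 15 sterol, 14 of 61 drug and 5 of 20 fatty acid genes. Without replicate 1 the count was 43, against 62.6% of all protein-coding genes, and with the upper 50% of each list it was 8, against 21.8%. The 25 genes had 29 distinct regions, and for 17 of the 29 the nearest coding gene was not a P450 gene. Their median signal was 1.802, against 1.76 for all 8810 distal regions.

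At the P450 genes with the most distal regions, most of these were nearest to other genes. Cyp1a1 and Cyp1a2, divergent neighbours, had the same 4, all nearest to Csk, a kinase gene of blood and other cells. The strongest, chr9:57655821-57656020, had 6.07, 7.17 and 6.05 (6.43 ± 0.641, SD, n = 3) and lies 2.29 kb upstream of Csk and 32.01 kb upstream of Cyp1a1. Cyp2w1, a P450 gene of fetal gut, had 4, with mean signals of 3.18 to 6.90, of which 1 was nearest to Cyp2w1. Cyp24a1 had 3, of which 2 lie within Pfdn4 and none is nearest to Cyp24a1.

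Cyp4x1 had the strongest of all, at chr4:115095701-115096160, with 7.19, 10.5 and 6.40 (8.03 ± 2.18, SD, n = 3) and 7 shared footprints. It lies 39.5 kb downstream of the start of Tal1, a blood stem cell and red cell factor gene with known enhancers on that side, and its nearest gene is Pdzk1ip1, while the Cyp4x1 promoter itself had no peak. Among regions nearest to a P450 gene were 1 at Cyp26b1, within the gene at chr6:84590401-84590600 (1.61, 1.66 and 1.58), and 1 upstream of Cyp2s1 that is also within reach of Cyp2b10 (2.53 ± 0.818, SD, n = 3).

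Letters of known sites were counted in these distal regions. AGATAA or TGATAA, sites of the blood factors GATA1 and GATA2, were in the central 200 bases of 7 of 29 regions (24.1%) against 21.8% of all distal regions. The CTCF core CANNAGNNGGC was in 13 (44.8%) against 38.3%. In 10 of the 13 at least 5 of its bases lay in a footprint of every replicate. The same share was not computed over all distal regions with the core, so this count has no comparison. AGGTCA, a site of nuclear receptors, was in 1 (3.45%) against 11.4%. The hepatocyte sites CAAAGTCCA and TGTTTAC were in 0 of the 29 regions, against 0.204% and 2.11% of all distal regions. With shares this low, a count of 0 in 29 regions cannot show a lack of these sites.
The strongest region near Cyp1a1 and Cyp1a2 is shown on the plus strand, with the bases in footprints of every replicate in capitals, because its long footprint holds the CTCF core on the opposite strand.
Region between Csk and Cyp1a1 (chr9:57655841-57656020): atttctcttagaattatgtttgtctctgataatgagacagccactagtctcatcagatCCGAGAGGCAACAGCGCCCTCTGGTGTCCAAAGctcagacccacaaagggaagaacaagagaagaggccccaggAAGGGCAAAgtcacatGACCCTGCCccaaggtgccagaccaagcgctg

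P450 enzymes depend on partners, among them electron donors. All 10 listed partners in the annotation, of which not all are electron donors, were open in all 3 replicates. The share over all protein-coding genes was 50.9%. Por, which passes electrons to the enzymes of the endoplasmic reticulum, had 11.2, 23.0 and 9.71 (14.6 ± 7.27, SD, n = 3). Fdxr and Fdx1, of the mitochondrial chain, had 11.9 ± 5.24 and 1.45 ± 0.130. Alas1, the first enzyme of heme synthesis outside red cells, had 3.85 ± 0.405.

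Of 18 listed receptors and factors that regulate P450 genes, 10 were open in all 3 replicates (55.6%), against 50.9% of all protein-coding genes. The sterol regulator gene Srebf2 (11.9 ± 3.63) and Ahr, the aryl hydrocarbon receptor gene (2.29 ± 0.347), were among the open ones. Nr1i2 and Nr1i3, which code for the drug sensors PXR and CAR, had no peak in the shorter list, and Nr1i2 had one of 0.385 in replicate 2 of the longer list. Of 2 P450 genes with other symbols, which are not among the 100, the thromboxane synthase gene Tbxas1 was open (1.65, 0.787 and 1.15), and the prostacyclin synthase gene Ptgis had only a longer-list peak in replicate 2, of 0.268.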

How the data were processed

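DNase-seq of 3 replicates of embryonic liver was used. Per the notes deposited beside the files, the authors made the files per sample from filtered mm10 alignments, without pooling. The sources used here name no peak or footprint caller. The signal deposited for each peak is its maximum cut density, scaled for depth by the authors. The deposited FDR, a q-value type of measure, is listed below 0.05 for cut density and is 0.01 for all footprints.

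Gene starts were those of GENCODE M21, and sequences were read from the RefSeq genome of GRCm38. Peaks of different replicates that shared at least 1 bp were joined, and a region with all 3 replicates was called shared. Python 3.11.15, NumPy 2.4.6, numba 0.67.0, bedtools 2.31.1 and matplotlib 3.10.9 were used, and the joining and promoter steps were tested on simulated data. With 1 group and members compared only with counts over all protein-coding genes, no p-value was computed.

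Genes named are those with a shorter-list peak in at least 1 replicate, those with the most distal regions and a fixed list of well-known P450 genes, with at most 5 named per gene list. The members and lists were chosen with earlier results of these data known. Alternatives were the longer list, the stronger peaks, other windows, distances and overlaps, narrower family sets, the 5′ end alone and leaving out each replicate. Depth is not stated, so no interval is given. One listed factor gene and one promoter sequence are not reported here.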

Additional observations from a re-analysis of the deposited data

How the results depend on the processing

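With the upper 50% of each shorter list by signal, 6 P450 promoters were open rather than 12, 1 drug family promoter rather than 4, and 8 P450 genes rather than 25 had a shared distal region within 50 kb. The narrow drug set had 2 open promoters, since it leaves out Cyp2r1 and Cyp2u1. Leaving out each replicate gave 11 to 16 open P450 promoters, 3 to 5 sterol and 3 to 5 drug promoters, 25 to 43 genes with a distal region and 14 to 15 with a footprint. The highest distal count, 43, and the highest sterol count, 5, came without replicate 1, which has the fewest peaks. The other alternatives kept each of these counts within 1.5 times its value. Among them were 37 genes with a distal region in the longer list, 18 within 25 kb and 34 within 100 kb, and 6 open drug promoters with a window of 1000 bp. For these settings the share over all protein-coding genes was not computed, so the counts do not show whether the P450 genes stay below it. Requiring a peak in every replicate without a shared region, an alternative chosen after seeing the data, gave 13 open P450 promoters. Of the 20 named genes with a peak, only Cyp2j6 (0.246 to 0.360) and Cyp4f16 (0.522 to 0.846) changed in mean signal in the longer list. At both a replicate 1 peak was added, and the change was below their SD of 0.232 and 0.468, which includes a replicate without a peak. Elsewhere the strongest peak carried the same signal in both lists, so this comparison could hardly show a change. No paired analysis was possible because there is 1 group. A gene without a peak was not detectably open at this depth, and near-identical copies limit what can be seen in the clusters.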
